A study of Homo sapiens with 2 samples.

Results

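The immediate early genes and the feedback inhibitors of the ERK pathway were compared between HCT116 cells carrying the hairpin shSUN2-1 (the SUN2 knockdown) and HCT116 cells carrying a scrambled hairpin (the scrambled control). SUN2 is a protein of the inner nuclear membrane that helps couple the nucleus to the cytoskeleton. HCT116 is a human colorectal carcinoma line, grown in both groups in DMEM with serum. Each group held 1 Affymetrix array, and a single hairpin was used, so an effect of the knockdown cannot be told apart from an effect of that hairpin or of that culture. The members were taken from a list of 36 gene symbols, matched to the gene symbol given for each probe set. A probe set is a group of short probes designed for one transcript or gene. Of the 36 genes, 35 had at least 1 probe set and 1 was not analysed here, among 18132 genes with a probe set in all. The 35 genes comprised 18 transcription factors, 11 ERK feedback inhibitors and 6 other early genes.

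Immediate early genes are transcribed within minutes of a stimulus such as a growth factor, from factors already in the cell, and their mRNAs are often short-lived. Growth factor receptors activate RAS, which drives the kinases RAF, MEK and ERK in turn. ERK phosphorylates transcription factors that act at the promoters of FOS, EGR1 and related genes, and the proteins made from these switch on later genes. The same signal induces its own inhibitors: DUSP phosphatases remove phosphate from ERK and related kinases, and Sprouty and Spred proteins restrain signalling upstream of ERK. In intestinal epithelium and its tumours the level of such transcripts is widely used as a readout of growth factor signalling, and it is also known to vary with serum, cell density and handling of the culture.

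Values are deposited intensities on a linear scale, and differences are those of log2(intensity + 16), the knockdown array minus the control array. A gene was represented by its brightest probe set, and a gene past the filter had a mean intensity over both arrays of at least 108, the median of all probe sets. Of the 35 genes, 32 passed the filter: all 18 transcription factors, 8 of the 11 feedback inhibitors and all 6 other early genes. With 1 array per group there was no replicate and no test for any value. The one measure of error was the scatter of probe sets around the mean of their gene, whose SD of 0.09 in log2 units, from 5786 genes, covers probe error only. SUN2 read 407 in the knockdown array and 498 in the control array, a log2 difference of -0.28 or 81.8% of control. The knockdown array was lower on each of the 4 SUN2 probe sets that passed, with differences from -0.39 to -0.07. A larger decrease than that of SUN2 was found for 80 genes past the filter, EGR1, IER3 and DUSP6 among them.

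A few early genes were lower in the knockdown array while most differed little. EGR1, IER3, DUSP6 and SPRY4 were at least 1.2-fold lower, and CCNL1 and DUSP5 were at least 1.2-fold higher. The 4 lower genes made 12.5% of the 32 members past the filter, against 0.884% of the 12218 genes past the filter that were lower by that fold. The 2 higher genes made 6.25% of the members, against 5.97% of all genes, a share near that background. No member reached 1.5-fold in either direction, where 0.0246% of all genes were lower and 0.336% higher. The other 26 members lay within 1.2-fold, and 11 of the 32 differed by less than the probe set SD.

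The direction of the small differences was spread over the list. Of the 32 members 20 were lower in the knockdown array and 12 higher, with a median difference of -0.08. Of all genes 50.2% were lower and 49.8% higher, with a median of -0.0008. Counted over all 67 probe sets of the members past the filter, 36 were lower (53.7%) and 31 higher, with a median of -0.03. Over the 22627 probe sets of all genes past the filter, 49.0% were lower, with a median of 0.003. The plot of every probe set by gene shows which members rest on 1 probe set and where the probe sets of a gene lie on both sides of 0.

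**Figure D1:**
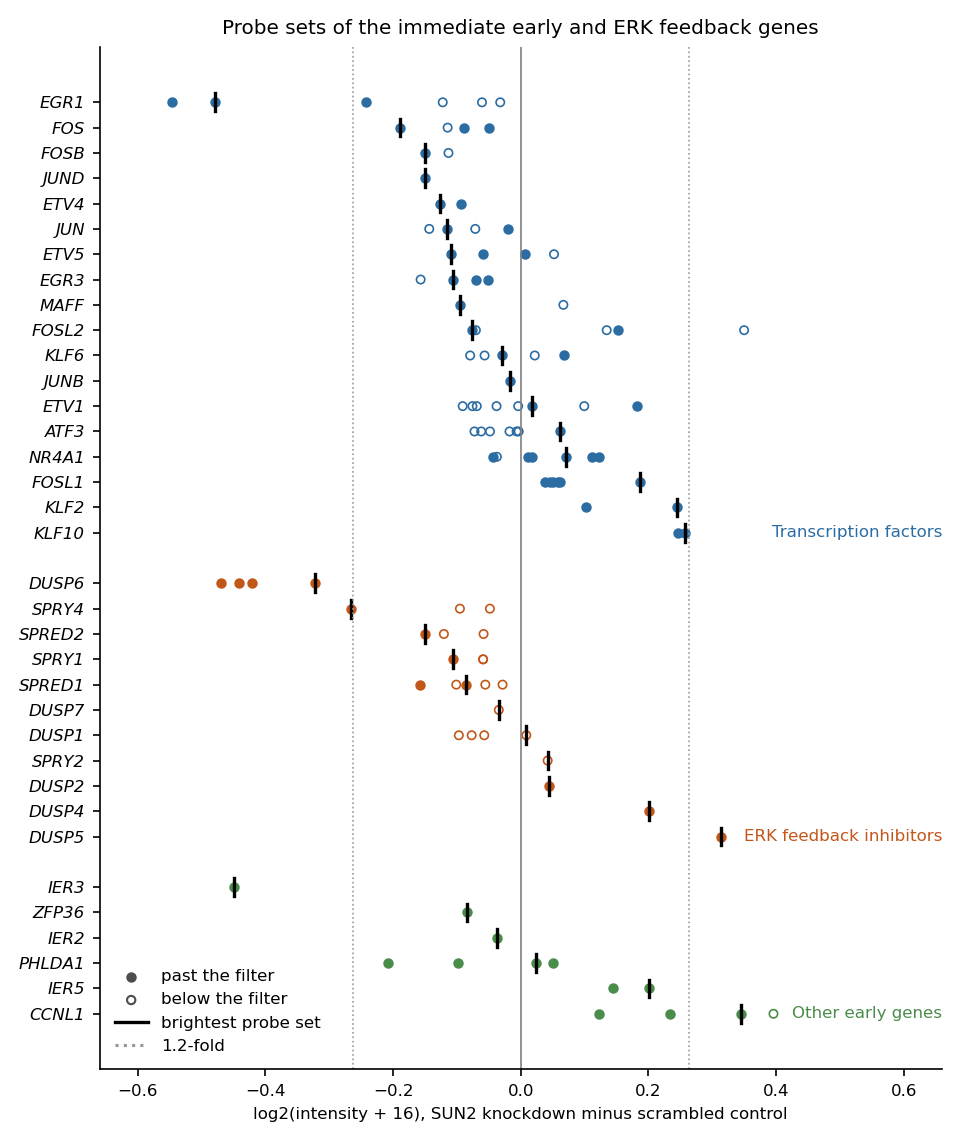
Each row is a gene, and the horizontal axis is the difference of log2(intensity + 16), SUN2 knockdown minus scrambled control, with filled points for probe sets past the filter, open points for those below it, a black bar at the brightest probe set and dotted lines at 1.2-fold. EGR1 and DUSP6 have all of their probe sets left of 0, CCNL1 has all 4 right of 0, and DUSP5 and IER3 each rest on 1 probe set.

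Promoter sequences are shown for the members at least 1.2-fold different that the RefSeq table of promoters lists (GRCh38.p14). ERK acts on factors that bind promoters of early genes, but binding to the sequences shown was not measured. Each run gives the 250 bases before the listed transcription start, on the strand of the gene. Capitals mark letters of a motif found on either strand: the CArG box bound by serum response factor, the CRE half-site TGACG bound by CREB and ATF factors (also part of the full CRE, TGACGTCA), the AP-1 site TGANTCA, the ETS site CCGGAA, the EGR site GCGNGGGCG and the TATA box TATAAA. The runs lie at chr5:138465229-138465478 on the plus strand for EGR1, chr12:89352502-89352751 on the minus strand for DUSP6, chr5:142324248-142324497 on the minus strand for SPRY4 and chr3:157160148-157160397 on the minus strand for CCNL1. IER3 and DUSP5 are named without a sequence.
EGR1: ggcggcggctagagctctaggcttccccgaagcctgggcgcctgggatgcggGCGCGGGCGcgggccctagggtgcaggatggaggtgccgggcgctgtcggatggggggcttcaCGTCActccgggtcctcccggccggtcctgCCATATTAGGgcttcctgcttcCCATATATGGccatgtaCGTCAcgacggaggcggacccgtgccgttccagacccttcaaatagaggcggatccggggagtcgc
DUSP6: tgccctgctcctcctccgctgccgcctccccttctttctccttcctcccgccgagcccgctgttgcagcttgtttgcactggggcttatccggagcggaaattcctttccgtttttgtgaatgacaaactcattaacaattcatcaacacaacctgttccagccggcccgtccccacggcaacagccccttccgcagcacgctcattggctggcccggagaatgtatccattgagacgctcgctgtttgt
SPRY4: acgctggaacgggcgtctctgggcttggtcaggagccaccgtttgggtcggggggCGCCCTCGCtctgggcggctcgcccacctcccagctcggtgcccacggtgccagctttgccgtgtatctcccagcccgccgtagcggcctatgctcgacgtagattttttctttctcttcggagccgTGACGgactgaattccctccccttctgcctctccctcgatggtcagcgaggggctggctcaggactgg
CCNL1: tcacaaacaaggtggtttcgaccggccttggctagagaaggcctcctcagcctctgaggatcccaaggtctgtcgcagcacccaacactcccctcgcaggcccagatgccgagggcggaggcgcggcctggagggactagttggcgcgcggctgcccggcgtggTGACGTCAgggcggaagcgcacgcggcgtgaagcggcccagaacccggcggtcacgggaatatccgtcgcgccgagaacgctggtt

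The EGR1 run held 2 CArG boxes, CCATATTAGG at 105 to 96 bases before the start and CCATATATGG at 83 to 74 bases before it. It also held 2 CRE half-sites and 1 EGR site. The CCNL1 run held 1 full CRE, at 86 to 79 bases before the start, with a CRE half-site on each strand inside it. The SPRY4 run held 1 CRE half-site and 1 EGR site, and none of the searched letters was found in the DUSP6 window. Of the 27 measured members in the table, only EGR1 had a CArG box in the window of a listed start, against 1.44% of 27305 genes. Sites beyond the 250 bases, or with letters that depart from the searched ones, were not looked for. A member without a match here can therefore still hold such a site. The CRE letters were more frequent among the members than over all genes. A CRE half-site was found in 14 of the 27 members (51.9%), against 24.9% of all genes, and a full CRE in 4 (14.8%), against 2.03%. The half-site occurred in 10 of the 16 listed members that were lower in the knockdown array and in 2 of the 8 that were higher. ETS sites occurred in 3 of the 16 and 4 of the 8, and EGR sites in 4 of the 16 and 2 of the 8. Full CREs occurred in 2 and 1, and TATA boxes in 4 and 1. Some of the 16 lay near 0, such as JUNB (-0.02) and IER2 (-0.04). Whether any of these letters go with direction was not tested. EGR sites were found in 7 members (25.9%, against 10.1% of genes), ETS sites in 8 (29.6%, against 17.2%), TATA boxes in 6 (22.2%, against 3563 of the 27305 genes) and AP-1 sites in 0 (against 8.06%). These matches describe letters in the windows, and genes with several listed starts had more than 1 window.

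Among the transcription factors, EGR1 stood furthest from 0. EGR1 encodes a zinc finger factor induced within minutes of ERK activation. Its brightest probe set read 465 in the knockdown array and 654 in the control array, a log2 difference of -0.48 or 1.39-fold lower, which is 5.07 times the probe set SD. A second probe set read 142 in the knockdown array and 215 in the control array, a log2 difference of -0.55. The third past the filter read 123 in the knockdown array and 148 in the control array, a log2 difference of -0.24. All 3 probe sets past the filter thus put EGR1 lower in the knockdown array, although by different amounts. Its 3 probe sets below the filter were also lower, by 0.03 to 0.12 in log2. Of the 12218 genes past the filter, 16 had a larger decrease than EGR1. The mean over the 3 probe sets past the filter was -0.42 ± 0.16 (SD over probe sets, n = 3), and the mean over all 6 was -0.25, under 1.2-fold.

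The other zinc finger factors and the nuclear receptor NR4A1 did not share this difference. EGR3, a relative of EGR1, read 263 in the knockdown array and 284 in the control array, a log2 difference of -0.11, and its 4 probe sets were all lower. KLF10, a factor also induced by TGF-beta, read 786 in the knockdown array and 655 in the control array, a difference of 0.26, just under 1.2-fold, with 0.25 on its second probe set. KLF2, known for its role in quiescence of lymphocytes and endothelium, read 476 in the knockdown array and 399 in the control array, a difference of 0.25, with 0.10 on its second probe set. KLF10 and KLF2 were thus higher on every probe set while EGR1 and EGR3 were lower on every probe set. KLF6, a factor linked to tumour suppression, lay near 0. It read 259 in the knockdown array and 264 in the control array, a difference of -0.03. NR4A1, an orphan nuclear receptor, read 344 in the knockdown array and 327 in the control array, a difference of 0.07. The differences on the 6 NR4A1 probe sets that passed lay between -0.04 and 0.12.

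The AP-1 genes encode FOS, JUN and ATF proteins that pair through leucine zippers and bind TGANTCA sites. Of these and the small MAF gene MAFF, 7 of 9 were lower and 2 higher, with a median of -0.10, and none reached 1.2-fold in either direction. FOS read 200 in the knockdown array and 231 in the control array, a log2 difference of -0.19, with differences of -0.09 and -0.05 on its other 2 probe sets past the filter. FOSB read 167 in the knockdown array and 188 in the control array, a difference of -0.15, and both of its probe sets were lower. FOS and FOSB were thus both lower, with FOSB at 1.59 times the probe set SD. FOSB lay below a mean intensity of 200, where 64.8% of all genes were lower.

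The late FOS relative FOSL1, a target of sustained ERK signalling, was higher. FOSL1 read 226 in the knockdown array and 197 in the control array, a log2 difference of 0.19. All 6 of its probe sets were higher, the other 5 by 0.04 to 0.06, less than the probe set SD. Whether targets of acute and of sustained signalling differ in direction was not tested. FOSL2 read 127 in the knockdown array and 135 in the control array, a difference of -0.08, whereas its other probe set past the filter differed by 0.15, so its direction depended on the probe set. JUN read 119 in the knockdown array and 131 in the control array, a difference of -0.12, with 4 of 4 probe sets lower. The JUN genes encode the partners of the FOS proteins. JUND read 216 in the knockdown array and 242 in the control array, a difference of -0.15 on 1 probe set. JUNB read 241 in the knockdown array and 244 in the control array, a difference of -0.02 on 1 probe set. The JUNB and JUND probe sets and the brightest ones of JUN and FOSB are of the _x_at class, which the array design marks as able to bind other sequences. ATF3, a stress-induced repressor, read 133 in the knockdown array and 127 in the control array, a difference of 0.06, and 6 of its 7 probe sets were lower. MAFF read 220 in the knockdown array and 236 in the control array, a difference of -0.10, with 0.07 on its other probe set.

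ETV1, ETV4 and ETV5 are the PEA3 group of ETS factors, whose mRNA levels track ERK signalling in many epithelia. ETV4 read 200 in the knockdown array and 219 in the control array, a log2 difference of -0.13, and -0.09 on its second probe set. ETV5 read 327 in the knockdown array and 354 in the control array, a difference of -0.11, with its other 2 probe sets past the filter at -0.06 and 0.01. ETV1 read 280 in the knockdown array and 276 in the control array, a difference of 0.02, with 0.18 on its other probe set past the filter. The group therefore held 2 genes slightly lower and 1 slightly higher, none by 1.2-fold.

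The ERK feedback inhibitors covered nearly the same range in both directions. DUSP6, the phosphatase most selective for ERK and a common readout of its activity, was lower in the knockdown array on all 4 of its probe sets. Its brightest probe set read 1159 in the knockdown array and 1453 in the control array, a log2 difference of -0.32. The other 3 read 698, 680 and 506 in the knockdown array against 953, 916 and 708 in the control array, with differences of -0.44, -0.42 and -0.47. The mean was -0.41 ± 0.06 (SD over probe sets, n = 4), and 51 genes had a larger decrease than the -0.32 of the brightest probe set.

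DUSP5 and DUSP4, nuclear phosphatases also induced by ERK, were higher. DUSP5 read 267 in the knockdown array and 211 in the control array, a log2 difference of 0.31 or 1.24-fold, on 1 probe set. DUSP4 read 545 in the knockdown array and 473 in the control array, a difference of 0.20, on 1 probe set. Neither of these had a second probe set to set beside it. DUSP2 read 164 in the knockdown array and 159 in the control array, a difference of 0.04. Among the 4 phosphatases past the filter, 1 was lower and 3 were higher. DUSP1 and DUSP7 did not pass the filter, at 77.2 and 72.7 in the knockdown array and 76.7 and 74.8 in the control array for their brightest probe sets. The 4 DUSP1 probe sets differed by -0.10 to 0.01, and the 1 DUSP7 probe set by -0.03.

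The Sprouty and Spred genes past the filter, which encode inhibitors that act upstream of ERK, were all lower. SPRY4 read 158 in the knockdown array and 193 in the control array, a log2 difference of -0.27 and its 2 probe sets below the filter differed by -0.10 and -0.05. SPRED2 read 387 in the knockdown array and 431 in the control array, a difference of -0.15. Like SPRY4, SPRED2 was lower on all 3 of its probe sets, 1 of them past the filter. SPRY1 read 137 in the knockdown array and 149 in the control array, a difference of -0.11. SPRED1 read 340 in the knockdown array and 362 in the control array, a difference of -0.09, with -0.16 on its second probe set past the filter. SPRY4 lay just past 1.2-fold, and not past it after loess correction (-0.25), with a pseudocount of 64 (-0.21) or with the mean of all its probe sets (-0.14). The other 3 did not reach 1.2-fold. SPRY2 did not pass the filter, at 78.0 in the knockdown array and 75.3 in the control array. Over the group, 14 of 15 probe sets were lower, 5 of them past the filter. Of the 14, 2 SPRY1 probe sets below the filter had identical values on both arrays and count as 1 measurement. Of all gene probe sets below the filter 66.4% were lower, the direction that the dim probe sets of the group also took.

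**Figure D2:**
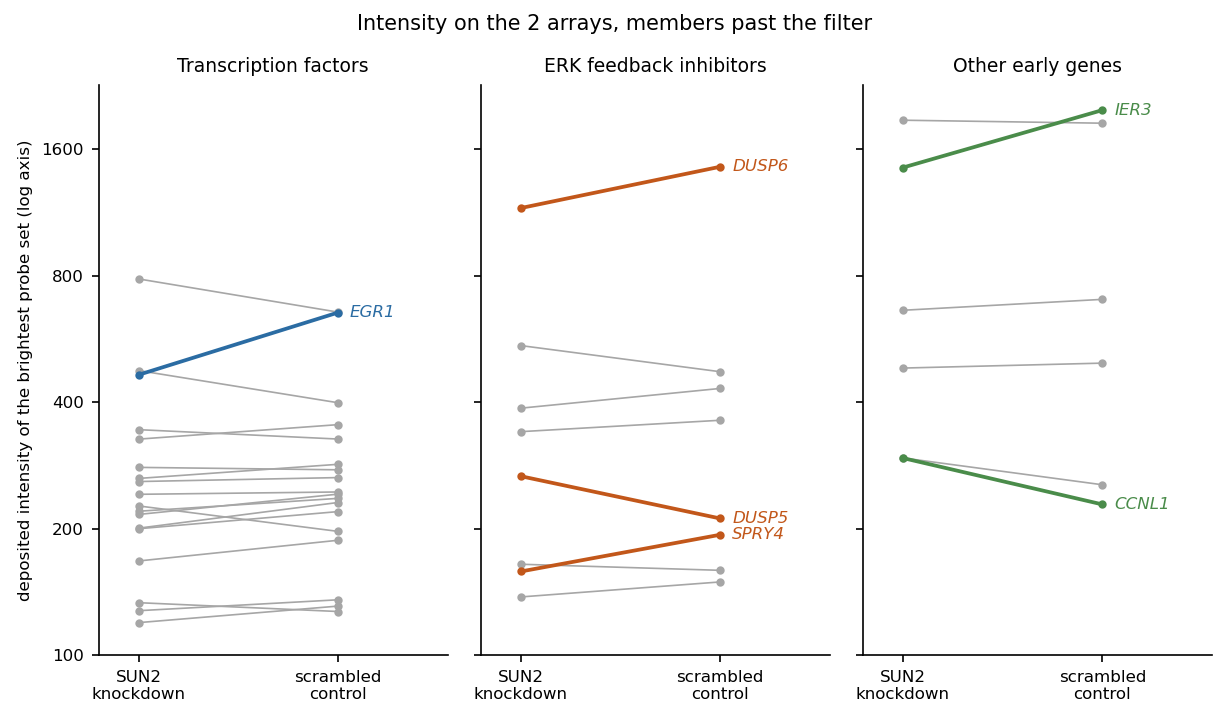
Deposited intensity of the brightest probe set of each member past the filter, on a log axis, in the SUN2 knockdown array (left) and the scrambled control array (right), with 1 line per gene and coloured lines for differences of at least 1.2-fold. EGR1, DUSP6, SPRY4 and IER3 are lower in the knockdown array, and CCNL1 and DUSP5 are higher. Grey lines are differences under 1.2-fold, which run from -0.19 (FOS) to 0.26 (KLF10) in log2.

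Transcription factors and feedback inhibitors had similar medians. The median difference was -0.09 for the 18 transcription factors, of which 12 were lower, and -0.10 for the 8 feedback inhibitors past the filter, of which 5 were lower. The transcription factor median minus the feedback inhibitor median was 0.01, and ran from -0.05 to 0.09 under the alternative ways of processing. The probe set SD does not measure the error of this difference, and whether the classes differ was not tested. At 1.2-fold, 1 transcription factor was lower and 0 were higher, and 2 feedback inhibitors were lower and 1 was higher. The quartiles were -0.12 and 0.05 for transcription factors and -0.18 and 0.08 for feedback inhibitors. Within each class the genes differed more from each other than the classes did. Among feedback inhibitors, DUSP6 and DUSP5 both lay past 1.2-fold, in opposite directions.

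The 6 other early genes held 1 gene past 1.2-fold in each direction. IER3, an early gene linked to survival and ERK signalling, read 1447 in the knockdown array and 1982 in the control array, a log2 difference of -0.45, or 1.37-fold lower, on its 1 probe set. Of all genes past the filter, 20 had a larger decrease. The IER3 probe set and the brightest ones of EGR1 and SPRY4 are of the _s_at class, which an alternative left out together with _x_at. EGR1 then differed by -0.55, and IER3 and SPRY4 had no value. CCNL1, a cyclin associated with RNA splicing, read 294 in the knockdown array and 228 in the control array, a difference of 0.35 or 1.27-fold higher. The other CCNL1 probe sets past the filter differed by 0.23 and 0.12, and the one below it by 0.40. CCNL1 was higher on every probe set, with a mean over the 3 past the filter of 0.23 ± 0.11 (SD over probe sets, n = 3), below 1.2-fold. A total of 294 genes had a larger increase than its brightest probe set.

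The related early genes IER2 and IER5 differed less and in opposite directions. IER5 read 295 in the knockdown array and 254 in the control array, a difference of 0.20, with 0.14 on its second probe set. IER2 read 482 in the knockdown array and 495 in the control array, a difference of -0.04. None of these came to 1.2-fold. PHLDA1, an early gene induced by growth factors, read 1876 in the knockdown array and 1845 in the control array, a difference of 0.02, and its 4 probe sets ran from -0.21 to 0.05. ZFP36 encodes tristetraprolin, which binds AU-rich elements and speeds the decay of early mRNAs. It read 662 in the knockdown array and 703 in the control array, a difference of -0.08.

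The difference depended on brightness over all genes, so members were also set beside genes of like intensity. At a mean intensity of 400 and above, 3 of 10 members were at least 1.2-fold lower, against 1.39% of 3026 genes, and 0 were that much higher, against 12.2% of genes. In that band the members had a median of -0.06, and all genes one of 0.09 with 27.5% lower. In the brightest band 6 of 10 members were lower, where most genes were higher. From 200 to 400, 0 of 15 members were lower and 2 were higher by 1.2-fold, with a median of -0.03 against 0.0009 for 4356 genes. Below 200, 1 of 7 members was lower by 1.2-fold, with a median of -0.11 against -0.04 for 4836 genes, of which 64.8% were lower. The members that stand below the cloud of genes in the plot of difference against brightness are EGR1, IER3 and DUSP6.

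**Figure D3:**
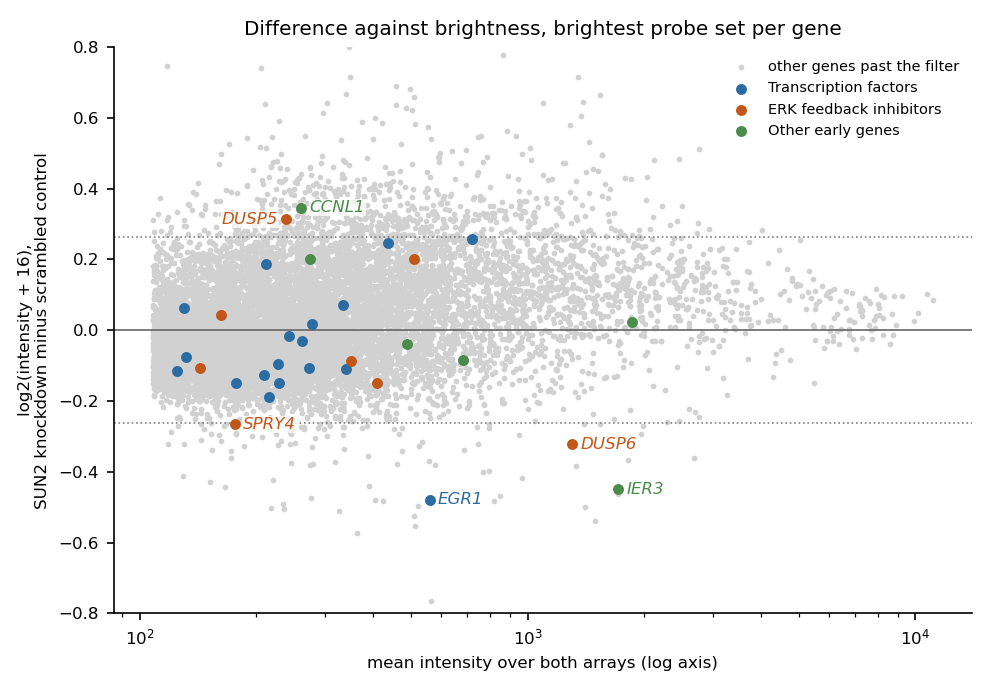
The horizontal axis is the mean intensity over both arrays (log axis) and the vertical axis the difference of log2(intensity + 16), SUN2 knockdown minus scrambled control; each point is the brightest probe set of a gene past the filter, and dotted lines mark 1.2-fold. EGR1, IER3 and DUSP6 lie below most genes of their brightness, SPRY4 lies at the lower line, and the other coloured points lie in the cloud. Another 20 genes lie outside the axis.

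Background and markers of other cell types were also lower in the knockdown array. The 18 probe sets for hybridization spike-ins, which are added controls, were all higher there, by 0.01 to 0.16 in log2 (median 0.09). The array carries 23 background controls, made to match no human sequence and graded by their number of G and C bases, and 20 of them were lower in the knockdown array. Their median log2 difference was -0.04, and the control with 25 G or C bases differed by -0.33. In intensity units the loss was 18.7 for the control with 20 G or C bases, 81.1 for that with 24 and 297 for that with 25. EGR1 lost 189 units, DUSP6 295 and IER3 535 on their brightest probe sets, while FOS lost 30.3 and SPRY4 35.3. These are losses of different probes at unlike brightness, and the GC content of the members' probes was not used here. The part of background in the members' differences, large or small, was not tested.

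Of 18 fibroblast, immune and endothelial markers with a probe set, 9 passed the filter and all 9 were lower, by 0.03 to 0.13 in log2. Their summed intensity was 2150 in the knockdown array and 2274 in the control array, and none exceeded 230 in the knockdown array or 254 in the control array. That lies within the range of the background controls, which read up to 1128 in the knockdown array and 1425 in the control array, so no marker stands at 0 on this scale. The upper end is the control with 25 G or C bases, while that with 20 read 264 in the knockdown array and 282 in the control array. Most members, with EGR1, SPRY4, CCNL1 and DUSP5 among them, lay within the same range. Of 8 epithelial markers, 7 passed the filter and 6 of these were higher, with a median of 0.14 and 2 past 1.2-fold, KRT8 (0.34) and KRT18 (0.32). Among the 7 were EPCAM (1480 in the knockdown array, 1342 in the control array) and KRT8 (1325 in the knockdown array, 1041 in the control array). At 400 and above, where EPCAM, KRT8, KRT18 and KRT19 lay, 12.2% of genes were 1.2-fold higher and the median was 0.09. The 9 markers of other cell types were dimmer than these, and 64.8% of genes below 200 and 49.7% from 200 to 400 were lower. The marker sets thus differed in brightness as well as in cell type. Of the 7 lower genes among the AP-1 genes and MAFF, FOS, FOSB and JUND had larger decreases than any of these 9 markers of other cell types and the other 4 did not. The part of a shared shift in them was not tested.

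Genes of the pathway outside the list were also counted. As background for these counts, 0.884% of all genes past the filter were at least 1.2-fold lower and 5.97% were at least 1.2-fold higher. In the RAS-RAF-MEK-ERK cascade 11 genes passed the filter, 8 of them higher and 3 lower, with a median of 0.02 and 0 past 1.2-fold in either direction. The ends were MAP2K1, which encodes MEK1, at 0.26 with its 3 probe sets from -0.10 to 0.26, and the kinase gene ARAF at -0.20. PTPN11, which encodes the phosphatase SHP2, differed by 0.22. Among 11 kinases and factors that act on early gene promoters 6 were lower and 5 higher, with a median of -0.02, and 1 was 1.2-fold higher: RPS6KA4, which encodes the histone kinase MSK2, at 0.29 with its 4 probe sets from -0.11 to 0.29. SRF, the factor that binds CArG boxes, differed by -0.09 and its partner ELK1 by -0.03.

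Other genes known to be induced by ERK included larger increases than any member. Of 11 past the filter, 7 were higher and 4 lower, with a median of 0.08, and 3 were 1.2-fold higher and 2 were 1.2-fold lower. The 3 higher genes, EREG, MYC and DKK1, lay at 400 and above, where 12.2% of all genes were 1.2-fold higher. The 2 lower genes, UPP1 and VGF, lay from 200 to 400, where 0.94% of all genes were 1.2-fold lower. EREG, an EGF receptor ligand, read 1702 in the knockdown array and 1173 in the control array, a log2 difference of 0.53, with its 4 probe sets from 0.16 to 0.53. MYC, a growth-promoting factor, read 898 in the knockdown array and 642 in the control array, a difference of 0.48 on 1 probe set. DKK1, a secreted Wnt inhibitor, read 1822 in the knockdown array and 1288 in the control array, a difference of 0.50 on 1 probe set. UPP1 and VGF were lower, both by 0.27 to 0.28 in log2. The targets that differed by 1.2-fold therefore lay on both sides of 0, as the members did.

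Of 13 JNK and p38 pathway genes, 7 were lower and 6 higher, with a median of -0.02, and 1 was past 1.2-fold. That gene was MAPK9, which encodes JNK2, at -0.30 on its brightest probe set and 0.08 on its other probe set past the filter. Of 12 genes that act in decay of early mRNAs, 10 were higher and 2 lower, with a median of 0.08, against -0.0008 for all genes. By brightness, all genes had medians of 0.09 at 400 and above, 0.0009 from 200 to 400 and -0.04 below 200. ZFP36L1, HNRNPD, KHSRP and CNOT7 lay in the brightest band, and the list was not matched for brightness. The gene past 1.2-fold was KHSRP, which encodes a protein that binds AU-rich elements, at 0.27 and 0.31 on its 2 probe sets past the filter.

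**Figure D4:**
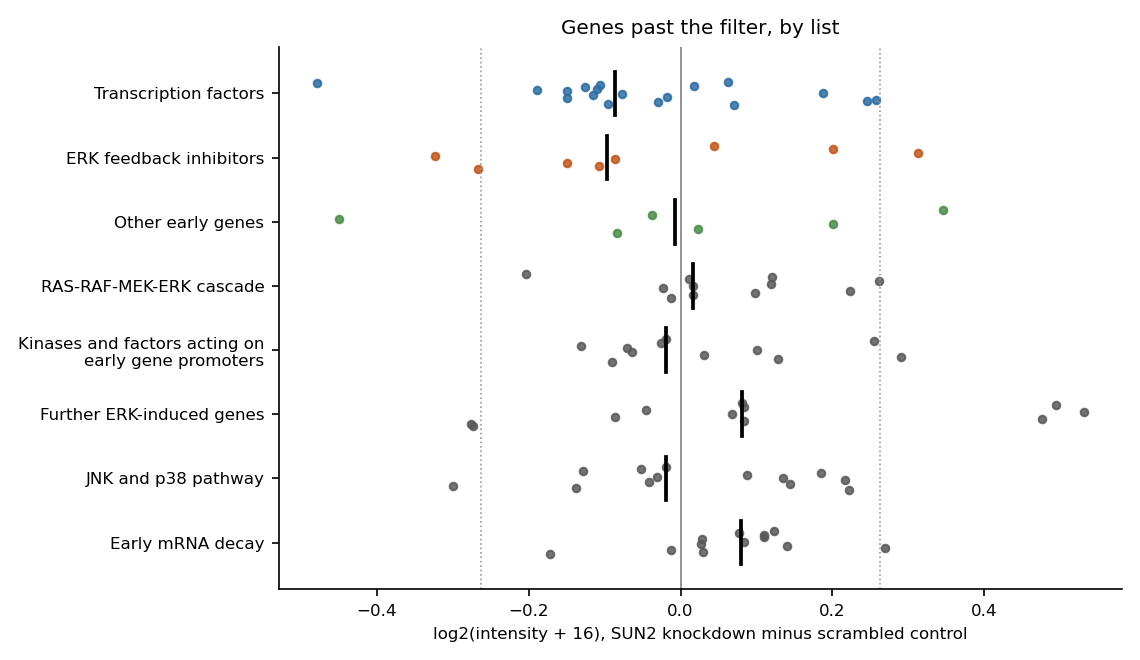
Differences of log2(intensity + 16), SUN2 knockdown minus scrambled control (horizontal axis), for genes past the filter in the 3 classes of members and 5 lists of pathway genes, with 1 point per gene, a black bar at each median and dotted lines at 1.2-fold. The medians of all 8 rows lie between -0.10 and 0.08, and single genes lie past 1.2-fold on both sides.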

How the data were processed

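Total RNA of 2 HCT116 cultures was labelled with biotin from 100 ng and hybridised to Affymetrix arrays, per the labels' protocols. The authors deposited probe set intensities on a linear scale. MAS5 and RMA appear, without a stated role, in the submitters' processing notes, and how the arrays were normalized to each other was not given in the sources. Column medians were 107 in the knockdown array and 109 in the control array. Whether the values were scaled or centred to each other stays unknown, and background was still part of them. Equal background makes a fold understate a difference, and the lower background of the knockdown array can add to a decrease.

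The table held 49395 probe sets, of which 102 were controls. Of the other 49293, the platform annotation gave 1 symbol to 44988, several to 1832 and left 2473 without. RefSeq symbols were assigned by Entrez ID. The log2 scale had a pseudocount of 16, added here to the deposited intensities. Genes were counted past 1.2-fold and 1.5-fold, with no test, SD or p-value between cultures, as each group held 1 array. The number of arrays limits the precision. The named genes were all members past the filter, members below it by their range, and in each pathway list the genes past 1.2-fold or otherwise the 2 with the largest difference. ARAF, SRF, ELK1, EPCAM, KRT8 and KRT18 were added for their roles. The members, lists, fold and filter were chosen with earlier results of these data known. Of 104 genes in the pathway and marker lists, 91 had a probe set with 1 symbol. Promoter letters came from RefSeq on GRCh38.p14, for 27 of 35 measured members. The gene step was tested on simulated data. Python 3.11.15, pandas 2.3.3, numpy 2.4.6, R 4.3.3 and limma 3.58.1 were used. Alternatives were median centring, quantile normalization, loess, means of probe sets, leaving out the _x_at and _s_at classes, other filters and pseudocounts, and normexp.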

Additional observations from a re-analysis of the deposited data

How the results depend on the processing

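No paired analysis was possible because there was 1 array in each group, which also means that none could be omitted. Under 11 alternatives the median difference stayed below 0 for all members (-0.10 to -0.03), transcription factors (-0.10 to -0.02) and feedback inhibitors (-0.13 to -0.03). The transcription factor median minus the feedback inhibitor median ran from -0.05 to 0.09, below 0 only without the filter on low values, which adds 3 dim inhibitors. The 4 members at least 1.2-fold lower became 2 with the mean of all probe sets, where EGR1 (-0.25) and SPRY4 (-0.14) no longer reached 1.2-fold. They became 2 without the _x_at and _s_at classes, a setting that leaves 23 members and no probe set past the filter for IER3 and SPRY4. SPRY4 also lost 1.2-fold with loess (-0.25) and a pseudocount of 64 (-0.21), and did not pass the filter at the 75th percentile. The 2 at least 1.2-fold higher became 1 with the mean of the probe sets past the filter and 4 with normexp. EGR1 ran from -0.57 to -0.25, DUSP6 from -0.44 to -0.31, SPRY4 from -0.32 to -0.14, IER3 from -0.56 to -0.44, DUSP5 from 0.26 to 0.37 and CCNL1 from 0.23 to 0.40. None of these 6 changed sign where it had a value, which was under 9 alternatives for SPRY4, 10 for IER3 and 11 for the others. Over all genes, 108 lower and 730 higher genes at 1.2-fold became 242 and 379 with quantile normalization, while loess gave 191 and 480. Background in the values and 1 array per group limit what can be read from differences near 0.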
